A study of Rattus norvegicus with 8 samples.

Results

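The ADAMTS proteases (a disintegrin and metalloproteinase with thrombospondin motifs) are secreted zinc metalloproteinases, and 10 of them were followed here in rat carotid arteries after intimal injury. The members were the rows of the deposited count table whose symbol was Adamts1, Adamts2, Adamts4, Adamts5, Adamts7, Adamts8, Adamts9, Adamts12, Adamts14 or Adamts15, and all 10 symbols were found among its 37209 genes. In the study, the left carotid artery of male Sprague-Dawley (SD) rats weighing 400 g on average was injured from the inside with a balloon catheter. The 4 injured arteries were harvested 2 weeks later, and 4 undamaged right carotid arteries, left in place in the operated animals, were the self-controls. mRNA of these arteries was sequenced. The sources used here do not say which layers of the wall were taken, and the titles of the injured samples begin with Neo. The age of the rats is not given in the sources used here, no transgene was involved, and each control came from an animal that had also undergone the injury of its other artery.

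ADAMTS proteases are made with a propeptide that is removed by furin-type convertases, and their thrombospondin repeats and spacer domains hold them close to their substrates in the extracellular matrix (ECM). They fall into functional groups. The proteoglycanases, here Adamts1, Adamts4, Adamts5, Adamts8, Adamts9 and Adamts15, cleave the core proteins of large hyaluronan-binding proteoglycans such as versican and aggrecan. The procollagen N-proteinases, here Adamts2 and Adamts14, remove the amino-terminal propeptide of fibrillar procollagens, a step needed for normal fibril assembly. Adamts7 and Adamts12 bind and cleave cartilage oligomeric matrix protein (COMP), a matrix protein also made by vascular smooth muscle cells (VSMCs). In the artery wall, versican turnover and COMP are known to bear on VSMC migration and on the contractile phenotype.

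Of the 10 ADAMTS proteases, 4 were upregulated after injury, namely Adamts4, Adamts7, Adamts12 and Adamts14, and 0 were downregulated. The increases were 3.35-fold to 6.03-fold. A gene was called at a false discovery rate (FDR, the p-value adjusted by Benjamini-Hochberg over all genes tested) under 0.05 where it also changed by more than 2-fold, the criteria used in the study, in edgeR's quasi-likelihood test of the counts. All 10 genes had enough counts for this test. Among all 14359 genes tested, 10.9% were called, 8.31% up and 2.57% down. The members had a median log2 fold change of 0.24, against -0.06 over all genes tested. Both COMP-cleaving proteases rose, as did 1 of the 2 procollagen N-proteinases and 1 of the 6 proteoglycanases. The study itself listed Adamts4, Adamts7, Adamts12 and Adamts14 among its ECM molecules from these same arteries, so that list is not independent evidence of their direction.

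The 4 promoters below are shown because these 4 genes were upregulated, and they are the stretches of 250 bases before and 50 bases after the annotated start of each gene. The sequences are from RefSeq on the rat assembly GRCr8 and run 5′ to 3′ on the strand of the gene, with the start at base 251. Capitals mark matches to any of 6 motifs, searched on both strands: AP-1 (TGANTCA), the GC box (GGGCGG), RUNX (TGTGGT), TEAD (GGAATG), the TATA box (TATAAA) and the CArG box.
Adamts4, chr13:86202761-86203060, forward strand: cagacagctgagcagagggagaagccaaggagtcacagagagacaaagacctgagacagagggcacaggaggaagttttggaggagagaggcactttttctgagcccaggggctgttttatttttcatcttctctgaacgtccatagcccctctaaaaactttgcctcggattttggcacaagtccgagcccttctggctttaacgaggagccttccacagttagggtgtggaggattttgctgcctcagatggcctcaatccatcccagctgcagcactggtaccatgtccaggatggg
Adamts7, chr8:99584279-99584578, forward strand: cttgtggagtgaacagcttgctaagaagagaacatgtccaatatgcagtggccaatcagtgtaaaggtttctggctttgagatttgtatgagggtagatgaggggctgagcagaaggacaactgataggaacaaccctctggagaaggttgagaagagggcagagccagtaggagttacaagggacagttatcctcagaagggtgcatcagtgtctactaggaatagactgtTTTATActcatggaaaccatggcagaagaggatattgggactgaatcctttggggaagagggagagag
Adamts12, chr2:61759737-61760036, forward strand: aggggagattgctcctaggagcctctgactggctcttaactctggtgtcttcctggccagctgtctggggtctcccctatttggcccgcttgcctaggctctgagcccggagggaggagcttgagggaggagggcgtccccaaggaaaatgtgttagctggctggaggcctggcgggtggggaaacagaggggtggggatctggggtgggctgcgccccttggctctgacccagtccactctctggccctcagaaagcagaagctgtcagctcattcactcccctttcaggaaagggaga
Adamts14, chr20:29762633-29762932, reverse strand: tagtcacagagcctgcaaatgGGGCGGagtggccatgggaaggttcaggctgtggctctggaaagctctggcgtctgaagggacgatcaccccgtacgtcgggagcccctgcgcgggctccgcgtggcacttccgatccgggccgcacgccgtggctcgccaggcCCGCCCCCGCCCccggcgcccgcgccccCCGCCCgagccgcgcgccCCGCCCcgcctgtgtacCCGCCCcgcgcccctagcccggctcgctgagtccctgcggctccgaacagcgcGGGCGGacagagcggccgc

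The 4 windows differed in base composition and in the motifs they held. That of Adamts14 was 76% G and C, with 7 GC boxes, 5 of them in the reverse orientation and lying between 85 and 22 bases before the start. The window of Adamts7 was 46.7% G and C and held 1 TATA box, in the reverse orientation at 18 bases before the start. The windows of Adamts4 (52.3% G and C) and Adamts12 (61.3%) held no match to the 6 motifs. The matches did not overlap each other. Of 33469 promoter windows of the same length, 33.1% held a GC box, 14.2% a TATA box, 14.2% a TEAD motif, 17.3% a RUNX motif, 7.33% an AP-1 motif and 1.64% a CArG box. Among the 6 members that were not called, Adamts1, Adamts2 and Adamts9 have an entry in the table of promoters. Adamts1 had 2 GC boxes and a TATA box at 70 bases before the start, Adamts2 had 5 GC boxes and Adamts9 had 1. Sequence matches are a description of these windows and do not show binding.

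The libraries held 11459632 to 16658089 counts, so that 3 counts corresponded to 0.18 to 0.262 CPM (counts scaled to a library of 1e+06), a floor that covers counting error only. All 6 smooth muscle marker genes were detected in every artery, although the protocol text of the labels names a brain region. Control artery 4 stood apart. Across genes, its correlation with each of the other controls was 0.83 to 0.852 on the log2 CPM scale, while those 3 correlated with each other at 0.976 to 0.978. The summed level of 7 sympathetic neuron marker genes was 8308 CPM in control artery 4, 1827 CPM in injured artery 3 and 125 CPM in injured artery 1, against 2.02 to 7.36 CPM in the other 5 arteries. The summed level of 6 macrophage marker genes was 123 to 177 CPM in the controls and 500.02 to 669 CPM after injury, with 5 of 6 called up. Smooth muscle markers summed to 17283 to 50154 CPM in the controls and 10398 to 16382 CPM after injury, with 4 of 6 called down. For 7 skeletal muscle markers the sums were 87.9 to 257 CPM and 291 to 1051 CPM, with 5 called up and Myh4 without counts in control arteries 2 and 4. For 6 proliferation markers they were 8.69 to 16.8 CPM and 76.1 to 119.6 CPM, with all 6 called up. Of 6 endothelial markers 2 were called up and 1 down, and of 6 fibroblast markers 1 was called up and 2 down. The part of these cell populations in the results below was not tested, and in RNA of mixed tissue fewer cells of a type and less RNA per cell cannot be told apart.

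In the control arteries, the 10 genes together took 0.148% ± 0.056 (SD, n = 4) of all counts, and 0.147% ± 0.0256 (SD, n = 4) in the injured arteries. By artery they took 0.192%, 0.178%, 0.156% and 0.0671% in control arteries 1 to 4, and 0.17%, 0.163%, 0.113% and 0.144% in injured arteries 1 to 4. The near-equal means thus rest in part on the low value of control artery 4. The makeup of these counts was split by role. The COMP-cleaving Adamts7 and Adamts12 made up 2.94%, 4.3%, 5.72% and 7.05% of them in control arteries 1 to 4, and 11%, 21.7%, 19.8% and 23.4% in injured arteries 1 to 4. The ranges did not overlap, and the means were 5% ± 1.77 (SD, n = 4) and 19% ± 5.51 (SD, n = 4). Most of this share was Adamts12, with means of 4.31% and 15.7%, against 0.694% and 3.25% for Adamts7. Shares of 1 total depend on each other, and the mean share of Adamts1 was 29.5% in the controls and 17.2% after injury. The share of the 6 proteoglycanases was 54.5% to 71.7% in the controls and 42.1% to 57.3% after injury, and these ranges overlapped. That of the 2 procollagen N-proteinases was 25.3% to 39.8% and 29.6% to 34.5%. These shares are of counts, which also depend on transcript length, so they were compared only between arteries, and being within a library they do not depend on the normalization. No test was made of them.

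**Figure D1:**
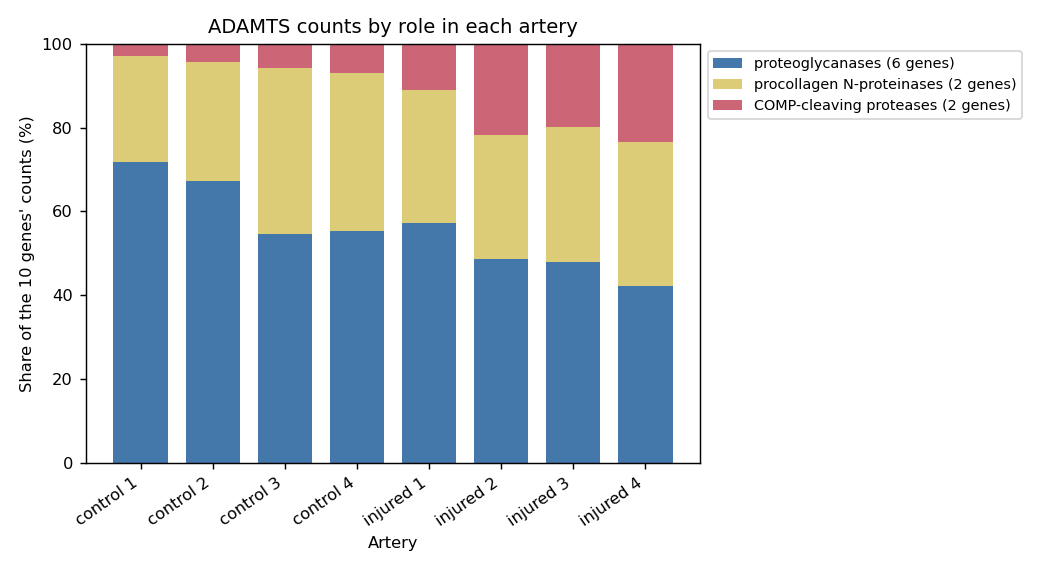
Share of the counts of the 10 ADAMTS genes, in percent on the vertical axis, that fell on each functional group in each of the 8 arteries. The red segment, Adamts7 and Adamts12 together, lies between 2.94% and 7.05% in the controls and between 11% and 23.4% in the injured arteries.

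Adamts4 is one of the 2 principal aggrecanases, the enzymes that cleave aggrecan at its characteristic site, and it also cleaves versican. Its level was 6.05, 4.43, 4.02 and 1.25 CPM in control arteries 1 to 4 and 20.5, 23.9, 22.7 and 28.1 CPM in injured arteries 1 to 4. Every injured artery was above every control, and control artery 4 was the lowest of all. The mean was 3.94 ± 1.99 CPM (SD, n = 4) in the controls and 23.8 ± 3.2 CPM (SD, n = 4) in the injured arteries, and edgeR gave a log2 fold change of 2.59 with a standard error (SE) of 0.42 (adjusted p = 0.00504). Without control artery 4, the log2 fold change was 2.29 (edgeR adjusted p = 0.000305).

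Adamts5, the other principal aggrecanase, lies next to Adamts1 in the GRCr8 annotation, with 0 genes between them. It had 49.2, 38, 42.6 and 30.1 CPM in the controls and 62, 57.2, 49.9 and 39.9 CPM after injury. Injured arteries 1, 2 and 3 were above every control, whereas injured artery 4 was below control arteries 1 and 3. The log2 fold change of 0.39 had a 95% interval of -0.05 to 0.82 (edgeR adjusted p = 0.21), which leaves out a rise of 2-fold. Thus Adamts4 and Adamts5, which share their main substrate, had different outcomes in the test, although the difference between them was not itself tested.

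Adamts1 cleaves versican and aggrecan and is known as a gene that responds quickly to stimuli. It varied more between arteries than between groups. The controls had 959, 748, 246 and 132 CPM, and the injured arteries had 464, 277, 135 and 124 CPM. The ranges overlapped, and in each group the artery numbered 1 was the highest and that numbered 4 the lowest. With means of 521 ± 396 CPM (SD, n = 4) and 250.4 ± 159 CPM (SD, n = 4), the log2 fold change was -1.06 (95% interval -2.62 to 0.50, edgeR adjusted p = 0.336), so that neither a fall of more than 2-fold nor a small rise lies outside the interval.

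Adamts8, a proteoglycanase that is also known to act against angiogenesis, had 229, 212, 198 and 73.7 CPM in the controls and 112, 132, 105 and 102 CPM after injury. All 4 injured arteries were below control arteries 1 to 3 and above control artery 4. Over all 8 arteries the log2 fold change was -0.66 (95% interval -1.40 to 0.08, edgeR adjusted p = 0.205) and the gene was not called. Without control artery 4 it was -0.92 (SE 0.12, edgeR adjusted p = 0.00113), below the FDR threshold but not past the fold change of 2. Adamts15, which cleaves versican, lies near Adamts8 in the GRCr8 annotation, with 1 non-coding gene between them. It had 176, 168, 210.3 and 61.7 CPM in the controls and 183, 179, 119 and 179 CPM after injury. Only control artery 4 and, less so, injured artery 3 were set apart from the other arteries. The log2 fold change of Adamts15 was 0.10 (95% interval -0.69 to 0.89, edgeR adjusted p = 0.87), and without control artery 4 it was -0.17.

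Adamts9, a versican- and aggrecan-cleaving protease with a distinctive carboxy-terminal GON domain, had 94.9, 149.5, 196 and 78.9 CPM in the controls and 63.3, 102, 75.2 and 93.4 CPM after injury. Injured arteries 1 and 3 were below every control, and the others lay within the range of the controls. The log2 fold change was -0.64 (95% interval -1.32 to 0.05, edgeR adjusted p = 0.194). Without control artery 4 it was -0.82 (edgeR adjusted p = 0.0426). In that fit 29.9% of all genes passed the FDR threshold without regard to fold change, and among the 6 members that were not called in the full comparison, Adamts2, Adamts8 and Adamts9 did.

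Adamts2 is the main procollagen N-proteinase, whose loss causes a fragile-skin form of Ehlers-Danlos syndrome. The controls had 531, 553, 649 and 252 CPM and the injured arteries 481, 436, 321 and 432 CPM. Control arteries 1 to 3 were above every injured artery and control artery 4 was below every one. The log2 fold change was -0.25 (95% interval -0.90 to 0.40, edgeR adjusted p = 0.596), and without control artery 4 it was -0.47 (edgeR adjusted p = 0.0474).

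Adamts14, the less studied procollagen N-proteinase, rose. It had 4.32, 5.74, 6.1 and 4.66 CPM in the controls and 18.6, 32.3, 19.1 and 32.2 CPM after injury. The groups did not overlap, and control artery 4 lay within the other controls. The controls averaged 5.2 ± 0.85 CPM (SD, n = 4) and the injured arteries 25.6 ± 7.73 CPM (SD, n = 4), and edgeR gave a log2 fold change of 2.29 with an SE of 0.25 (adjusted p = 0.00101). The adjusted p of Adamts14 stayed between 1.75e-13 and 0.0105 in the 15 alternative fits.

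Adamts7 and Adamts12 share a domain layout that includes a mucin-like region, and Adamts7 is known from human genetics as a locus of coronary artery disease. Adamts7 had 4.97, 7.14, 7.97 and 11.5 CPM in control arteries 1 to 4 and 41.7, 51.1, 36.2 and 50.1 CPM after injury. Here control artery 4 was the highest of the controls, yet all injured arteries were above it. The mean was 7.9 ± 2.73 CPM (SD, n = 4) without and 44.7 ± 7.1 CPM (SD, n = 4) with injury, and edgeR gave a log2 fold change of 2.50 with an SE of 0.26. Its adjusted p, 0.000843 in edgeR's test, was the smallest of the 10 members.

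Adamts12 had 57.2, 77.3, 86.2 and 36.6 CPM in the controls and 132, 292, 173 and 266 CPM in the injured arteries. The groups did not overlap, but injured artery 1 was less than 2-fold above control artery 3. From 64.3 ± 22.1 CPM (SD, n = 4) the mean rose to 216 ± 75.6 CPM (SD, n = 4), and edgeR gave a log2 fold change of 1.75 with an SE of 0.34 (adjusted p = 0.011). When the test asked for a change beyond 2-fold rather than beyond 0, Adamts12 was no longer called (adjusted p = 0.134 in edgeR's glmTreat), while Adamts4, Adamts7 and Adamts14 were. That test called 4.6% of all genes.

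**Figure D2:**
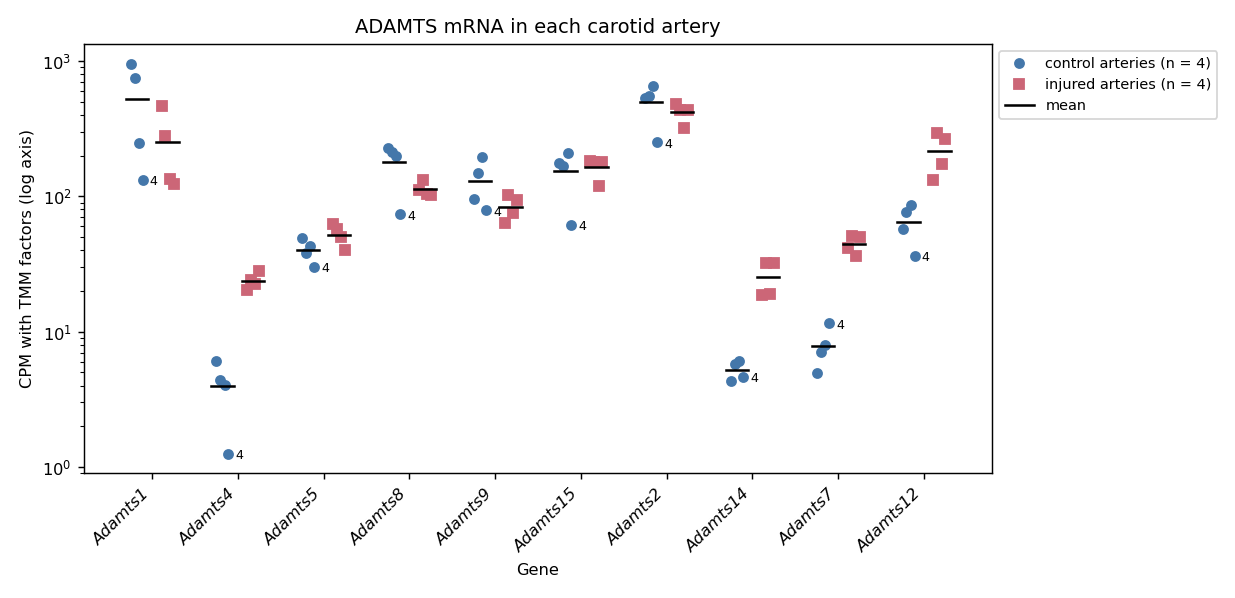
Level of the 10 ADAMTS genes in each of the 8 arteries, in CPM with TMM factors on a log axis, ordered by role, with a bar at each group mean and control artery 4 marked by its number. Control and injured points are apart for Adamts4, Adamts14, Adamts7 and Adamts12 and overlap for the other 6 genes, and control artery 4 is the lowest control for 8 of the 10.

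Control artery 4 thus had the lowest control level of 8 of the 10 members, against 39.9% of all genes tested. Relative to the mean of the other controls it had 20.3% of Adamts1, 25.9% of Adamts4, 33.4% of Adamts15, 34.6% of Adamts8, 43.6% of Adamts2, 49.7% of Adamts12, 53.8% of Adamts9 and 69.6% of Adamts5. It had 86.4% of Adamts14 and 172% of Adamts7. In the same artery all 6 smooth muscle markers and all 6 fibroblast markers were at their lowest control level. Leaving out control artery 4 kept the 4 calls, as did leaving out injured artery 3 as well. The share of all genes called was then 16.2% and 17.2%. DESeq2 and the edgeR fit with a replicate block also called the same 4 members, where they called 12.9% and 8.27% of all genes they tested.

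**Figure D3:**
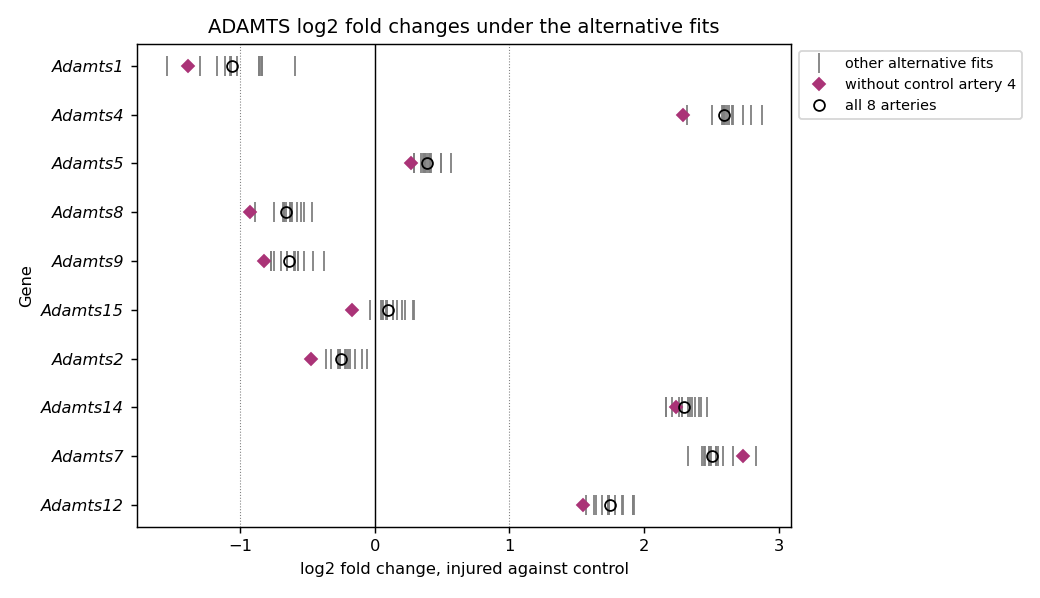
log2 fold change of each ADAMTS gene with all 8 arteries (open circles), without control artery 4 (diamonds) and in the other alternative fits (ticks), where dotted lines mark a 2-fold change. The 4 upregulated genes stay to the right of the upper dotted line in every fit shown, and the diamonds of Adamts1, Adamts2, Adamts8, Adamts9 and Adamts15 lie to the left of their circles.

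The non-overlap of groups gave the same count as the test. In 4 of the 10 genes every injured artery was above every control, and in 0 every injured artery was below, against 14.2% and 9.51% of all genes tested (23.7% in either direction). The 4 arteries of the injured group also differed among themselves. Injured arteries 2 and 4 were above injured arteries 1 and 3 for 5 of the 10 members, namely Adamts4, Adamts7, Adamts9, Adamts12 and Adamts14. The same held for 18.4% of all genes tested and 39.3% of the upregulated genes. This split of the injured arteries was not planned but taken from these same values, so the count is only a description.

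The rest of the family was examined with lists of 9 other ADAMTS genes and 7 ADAMTS-like genes, whose products resemble the ancillary domains of the proteases but lack the catalytic domain. Adamts13 was not matched, and the other 15 genes were tested. Of these, 5 were upregulated and 1 was downregulated, against 8.31% up and 2.57% down among all genes tested. Adamts16 had the largest change of these 15 genes. Its mean was 1.57 ± 0.653 CPM (SD, n = 4) in the controls and 13.1 ± 5.67 CPM (SD, n = 4) in the injured arteries, and it had a log2 fold change of 3.05 (SE 0.42, edgeR adjusted p = 0.00259). Adamts18 followed with 2.88 (edgeR adjusted p = 0.00381), although its controls had 8 counts at most. Adamts17, which is known for a connective tissue syndrome of the fibrillin type, had 1.60 (edgeR adjusted p = 0.00319). The procollagen N-proteinase Adamts3 was not called. Its level was 19.7 CPM in control artery 4 against 3.26 to 4.67 CPM in the other controls, and its log2 fold change was -1.23 (edgeR adjusted p = 0.198). Adamts3 and Myh4 are named after their values were seen.

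Adamtsl1, which encodes the matrix protein punctin, and Papln, which encodes papilin, were upregulated with log2 fold changes of 1.76 and 1.17. Thsd4, whose product binds fibrillin-1 microfibrils, was downregulated. It had 375, 298, 296 and 127 CPM in the controls and 132, 97, 79.6 and 113 CPM after injury, and control artery 4 lay within the injured range. Its log2 fold change of -1.38 (SE 0.32, edgeR adjusted p = 0.0225) was no longer called when any one of control arteries 1, 2 and 3 or injured arteries 2, 3 and 4 was left out, with an adjusted p of at most 0.075 in these edgeR fits, and with the replicate block (edgeR adjusted p = 0.0683). Without control artery 4 it was called, with -1.62. The 5 upregulated genes were called in every fit in which they could be tested other than that against a fold change of 2, in which 2 family genes were called. The study's ECM list from these arteries includes Adamts16, Adamts17, Adamts18 and Adamtsl1.

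**Figure D4:**
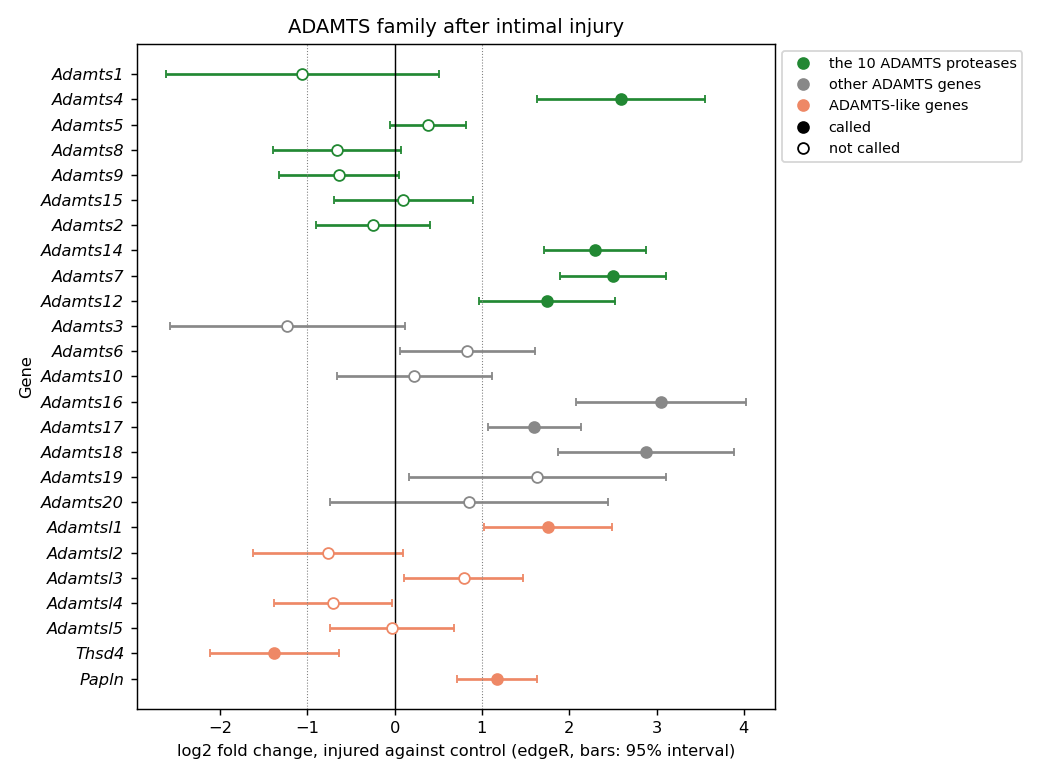
log2 fold change of injured against control arteries (horizontal axis) with its 95% interval from edgeR for the 10 ADAMTS proteases, 8 other ADAMTS genes and 7 ADAMTS-like genes. Filled circles passed both criteria (FDR and fold change), 9 of them to the right of 0 and 1, Thsd4, to the left.

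Among the substrates, aggrecan and COMP rose along with Adamts4, Adamts7 and Adamts12, whereas versican did not change detectably. Of 12 substrate genes on the list, 10 were tested and 3 were upregulated, against 8.31% of all genes tested. Acan had 2.88, 1.48, 1.73 and 0.208 CPM in the controls, the last from 3 counts, and 31.7, 208, 72.8 and 154 CPM after injury, and edgeR gave a log2 fold change of 6.20 with an SE of 0.87 (adjusted p = 0.00265). Comp had 18.2, 10.3, 13.9 and 10.2 CPM in the controls and 81, 176, 48.9 and 165 CPM after injury, and edgeR gave a log2 fold change of 3.16 with an SE of 0.44 (adjusted p = 0.0027). As with Adamts7, Adamts12 and Adamts14, injured arteries 2 and 4 had the highest levels of both, by the same unplanned split. The summed level of 7 chondrocyte markers, Acan among them, was 12.4 to 16.1 CPM in the controls and 45.2 to 236 CPM after injury. Most of the sum after injury was Acan itself, with 31.7 to 208 CPM, so it largely restates the Acan result. Of these markers 3 were called up, Acan among them, and 1 down, and their part in these changes was not tested. Vcan had 576, 644, 587 and 222 CPM in the controls and 496, 685, 381 and 479 CPM after injury, and its log2 fold change of 0.01 had a 95% interval of -0.76 to 0.78 (edgeR adjusted p = 0.989). Thbs1, the gene of the COMP relative thrombospondin-1, rose with a log2 fold change of 2.14 (edgeR adjusted p = 0.04), with 105 CPM in control artery 2 against 20 to 32.4 CPM in the other controls. The Thbs1 call was lost, with an adjusted p of at most 0.111 in edgeR's test, when any one of control arteries 1 and 3 or injured arteries 1 to 4 was left out or when no filter on low counts was used. Bgn was listed at 0 in all 8 libraries. That cannot be read as absence of its mRNA, because the counting tool and genome build are not given. Ncan did not pass the filter. Ncan had 192 counts in control artery 4 and 125 in injured artery 3, the arteries with the highest sympathetic neuron markers, and at most 5 in each of the others.

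Timp3, the tissue inhibitor of metalloproteinases that blocks Adamts4 and Adamts5 most strongly, was lower after injury. It had 2545, 2551, 3165 and 1325 CPM in the controls and 1489, 927, 1028 and 866 CPM in the injured arteries, and edgeR gave a log2 fold change of -1.15 with an SE of 0.30 (adjusted p = 0.0335). Control arteries 1 to 3 were above every injured artery, and control artery 4 was below injured artery 1. The call of Timp3 was lost when any one of control arteries 1, 2 and 3 or injured arteries 2, 3 and 4 was left out (adjusted p of at most 0.113 in edgeR's test), with library totals in place of TMM factors (log2 fold change -0.96), without a filter on low counts and with the replicate block (edgeR adjusted p = 0.0594), which makes 9 of 15 alternative fits. Without control artery 4 it was -1.36 (edgeR adjusted p = 0.00225). Fbln1, whose product fibulin-1 is a cofactor of Adamts1, had a log2 fold change of -1.25 (edgeR adjusted p = 0.0464), and its call was lost in 10 of 15 alternative fits. These were the fits without any one of the same 6 arteries, with library totals, without a filter, with a minimum of 10 counts per library and with the replicate block (edgeR adjusted p = 0.116). Lrp1, the endocytic receptor that clears Adamts4 and Adamts5, had 2076 ± 799 CPM (SD, n = 4) in the controls and 1911 ± 341 CPM (SD, n = 4) after injury and was not called (95% interval of the log2 fold change -0.88 to 0.64). Of 9 genes on this list of inhibitors, clearance receptors, cofactors and processing enzymes, 8 were tested, 2 were called down and 0 up. Among all genes tested, 2.57% were called down and 8.31% up. Furin, also on this list, passed the FDR threshold but not the fold change of 2 (log2 fold change 0.45, edgeR adjusted p = 0.0243). All its injured arteries were above every control, as held for 14.2% of all genes tested.

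**Figure D5:**
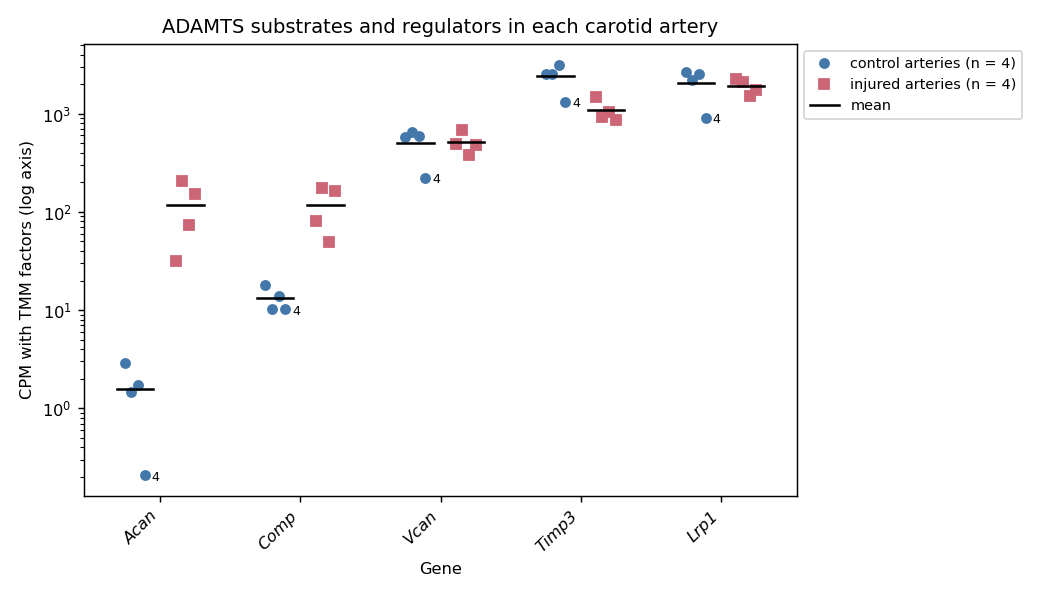
Level of aggrecan (Acan), COMP (Comp), versican (Vcan), Timp3 and Lrp1 in each of the 8 arteries, in CPM with TMM factors on a log axis, with a bar at each group mean and control artery 4 marked by its number. Acan and Comp are apart between the groups, whereas the points of Vcan, Timp3 and Lrp1 overlap.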

How the data were processed

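The authors deposited raw counts per gene symbol for 4 injured and 4 control carotid arteries. The submitters' processing notes name HISAT2 2.0.4, while the counting tool, genome build and strand setting are not given in the sources used here, so overlapping genes are uncertain. Nothing says which same-numbered arteries share an animal. Each control came from an operated rat, yet the main test treated the arteries as independent. Its p-values set the difference between groups against the spread between arteries within groups and take no account of shared animals.

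With edgeR 4.0.16 in R 4.3.3, 14359 genes passed filterByExpr, libraries were scaled by TMM, and a quasi-likelihood model with group as its only term was fitted. The F statistic gave standard errors and 95% intervals. Levels in CPM use the TMM factors, and the floor uses library totals. On simulated counts, edgeR recovered 71% of 200 genes changed by a factor of 4 among 14122 genes tested, with 5 false calls. The edgeR fit with the replicate block recovered 54% with 10 false calls, and DESeq2 89.5% with 40 false calls among 14359 genes. The simulated counts were drawn independently for each artery, with no shared animals and no library set apart like control artery 4. These rates therefore do not carry over to these arteries and do not rank the fits for them. Alternatives were DESeq2 1.42.0, other scalings and filters, a replicate block, each artery left out in turn, other criteria and, chosen after seeing the data, the fit without control artery 4 and injured artery 3. DESeq2 gave an adjusted p for 16652 genes.

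Members and lists were chosen with earlier results of these data known. Named genes are the 10 members, up to 4 called genes of each other list with the largest change, and Acan, Vcan, Comp, Timp3 and Lrp1. Outside this rule, Adamts3, Myh4, Bgn, Ncan, Furin and the genes compared with Adamts1 are named after their values were seen. Symbols were matched without regard to case, then by GRCr8 synonyms.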

Additional observations from a re-analysis of the deposited data

Results flagged for a closer look

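In 46 groups of 4 arteries, those of 23 named genes, the highest or lowest artery was set apart from its nearest neighbour by a share of the whole range above Dixon's 95% critical value in 5, where chance gives about 2.3. Adamts15 gave 0.927 in the injured arteries, with 119 CPM in injured artery 3 against 179 CPM in the nearest other. Adamts17 gave 0.855 in the controls, with 12.2 CPM in control artery 3, and 0.869 after injury, with 36.5 CPM in injured artery 2. Vcan gave 0.839 in the controls (222 CPM in control artery 4), and Thbs1 gave 0.854 (105 CPM in control artery 2).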

How the results depend on the processing

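Adamts4, Adamts7, Adamts12 and Adamts14 were called in all 15 alternative fits, with a log2 fold change of 1.55 to 1.93 for Adamts12 and 2.16 to 2.87 for the other 3. Of the members, 3 were called against a fold change of 2. The log2 fold change of Adamts15 was -0.167 to 0.2835 with each artery left out in turn, the lowest without control artery 4, and -0.035 without control artery 4 and injured artery 3. With each artery left out in turn, 4 members, 5 to 6 other family genes, 2 to 6 substrate and regulator genes and 1142 to 2398 genes in all were called, against 4, 6, 5 and 1562. Against a fold change of 2 it was 2 other family genes, 2 substrate and regulator genes and 661 genes in all. The FDR alone gave 2468 genes, at least 10 counts in every sample 1007, and the fit without control artery 4 and injured artery 3 gave 2473. Of the substrate and regulator genes, 8 were called by DESeq2, 3 with library totals only, 2 without a filter and 3 with at least 10 counts in every sample. With library totals, the median of all genes moved from -0.06 to 0.12 on the log2 scale. Why these counts moved was not tested. With the replicate block, 1187 genes, 4 members, 5 other family genes and 3 substrate and regulator genes were called. The block ended the calls of Thsd4, Timp3 and Fbln1. Whether same-numbered arteries came from 1 rat is not known. The deviations of arteries numbered 1 to 4 correlated at 0.301, 0.45, -0.52 and -0.416 between the groups. The main test did not use the numbers as pairs, and the replicate block used them only as an alternative. Numbers 3 and 4 hold the libraries with the highest sympathetic neuron markers, so these correlations do not settle whether the numbers mark animals. Depth limits Adamts18, with 2 to 8 counts in the controls.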

Other observations

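The pattern of Adamts1 over the 8 arteries was compared with that of 12899 other genes with an average log2 CPM above 1, by Pearson's r of log2 CPM, a comparison added after the values of Adamts1 were seen. The 5 genes most like it were Ctgf (r = 0.986, Spearman's rho = 0.905), Nfil3 (r = 0.984, rho = 0.905), LOC100365935 (r = 0.982, rho = 0.952), Jund (r = 0.981, rho = 0.976) and Rnd3 (r = 0.98, rho = 0.881). Without control arteries 1 and 2, the farthest from the median of Adamts1, these r were 0.949 to 0.967. The early-response genes Jun, Egr1 and Fos, picked after their values were seen, had r of 0.933, 0.958 and 0.88, and 0.869, 0.865 and 0.667 without the same 2 arteries. Jun, for example, had 1256, 742, 251 and 201 CPM in control arteries 1 to 4 and 926, 347, 297 and 198 CPM in injured arteries 1 to 4. All points share their libraries and depth, and these values are a description.

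The same-numbered arteries are not known to come from 1 rat, and their ratios are given as a description. The level of Adamts1 after injury was 0.484, 0.371, 0.549 and 0.943 times that in the control for numbers 1 to 4, below 1 in 4 of 4. That of Adamts5 was 1.26, 1.51, 1.17 and 1.33, above 1 in 4 of 4. For the 4 upregulated members any numbering would give ratios above 1, because every injured artery was above every control. Adamts2, Adamts8, Adamts9 and Adamts15 had ratios on both sides of 1. The share of all genes with 4 of 4 ratios on 1 side is not given here. With the replicate block, the log2 fold change of Adamts1 was -0.86 (edgeR adjusted p = 0.102). That of Adamts5 was 0.39 (edgeR adjusted p = 0.11), and neither gene was called. The ratios of Adamts8 were 0.489, 0.625, 0.528 and 1.38.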
